A study of Mus musculus with 24 samples.

Results

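The comparison of Nutm1 knockout (KO) with wild-type (WT) round spermatids rests on 6 of the 24 arrays of the series, chosen by their titles as replicates 1 to 3 of each genotype at this stage. Round spermatids are the haploid germ cells that follow meiosis, and they were taken from testes of adult male mice on a B6/129sv background. The KO group carries the Nutm1_KO genotype of the labels, which the design text of the series calls a knock down, and each of its 3 fractionations pooled the testes of 3 mice. The WT group, with no altered allele named, has 3 fractionations of 2 mice each. Cells were enriched by letting them settle through a gradient of bovine serum albumin, and per the labels the spermatid fraction also takes in early elongating cells. How Nutm1 was altered, in which cells, and from how many founders is not given in the sources used here. Replicates 4 to 6 of each group are RNA mixtures of these fractionations and serve as a check. Spermatocyte arrays (3 KO and 3 WT, from meiotic cells) are set beside the spermatids where the stages are compared.

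Nutm1 encodes Nut, a protein made in spermatids that binds the acetyltransferase p300 and is known to raise acetylation of histone H4 before histones are removed. In this step of sperm formation most histones give way first to short histone variants and transition proteins and then to protamines, which pack the DNA of the sperm head. Round spermatids transcribe many genes that few other cells use.

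RNA was hybridised to Illumina bead arrays of 45281 probes, and signals are given on a normalized log2 scale, on which a difference of 1 is a 2-fold change in signal. The direct KO arrays detected 15524 to 15795 probes and the direct WT arrays 13849 to 15266, so that the groups did not overlap in this count. The lowest detectable level was 5.49 to 5.54 on KO arrays and 5.60 to 5.93 on WT arrays. The first principal component of the 6 arrays held 65.99% of the variance and separated the genotypes, with scores of 35.1 to 44.5 in KO and -49.1 to -27.7 in WT. Arrays of the same genotype correlated at 0.981 to 0.987 in KO and 0.976 to 0.982 in WT, and arrays of different genotype at 0.929 to 0.958. The median SD of a feature was 0.19 in KO and 0.23 in WT.

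Nutm1 itself read 6.81, 6.75 and 7.03 on the KO arrays, against 8.52, 8.40 and 8.18 on the WT arrays. The groups lay apart, but all 3 KO arrays still detected its single probe. The difference was -1.50 (SE 0.24, adjusted p = 0.00156, limma), and it was -1.25 on the mixed arrays and -0.88 with no background correction. Which part of the gene is altered is not given, so a probe outside it would check nothing.

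Of 12705 features tested (10076 named genes and 2629 unnamed probes), 1890 (14.9%) differed between KO and WT round spermatids at a Benjamini-Hochberg adjusted p under 0.05 in a limma model. Higher features numbered 875 (6.89%) and lower features 1015 (7.99%), and among named genes 745 rose (7.39%) and 715 fell (7.1%). The falls were deeper, with a median difference of -1.35 among those called, against 0.84 among the rises. The groups did not overlap, with 3 KO arrays on one side of the 3 WT arrays, in 5510 features (43.4%), in 1005 of the called falls and in 869 of the called rises. The number of rises depended on scaling: with cyclic loess scaling in place of quantile scaling, 396 features rose (3.12%) and 1275 fell (10%), so that falls made up 76.3% of the calls in place of 53.7%. Loess moved the median difference of all features to -0.02, against 0.12 with quantile scaling. Of the falls, 565 (55.7%) passed under every alternative tried, and of the rises 167 (19.1%). Leaving out a single array gave 272 to 1111 rises and 649 to 1004 falls. The rises were fewer by more than 1.5 times without KO replicate 1 (365), 2 (392) or 3 (278) and without WT replicate 2 (272) or 3 (299), and so were the falls without WT replicate 3 (649).

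**Figure D1:**
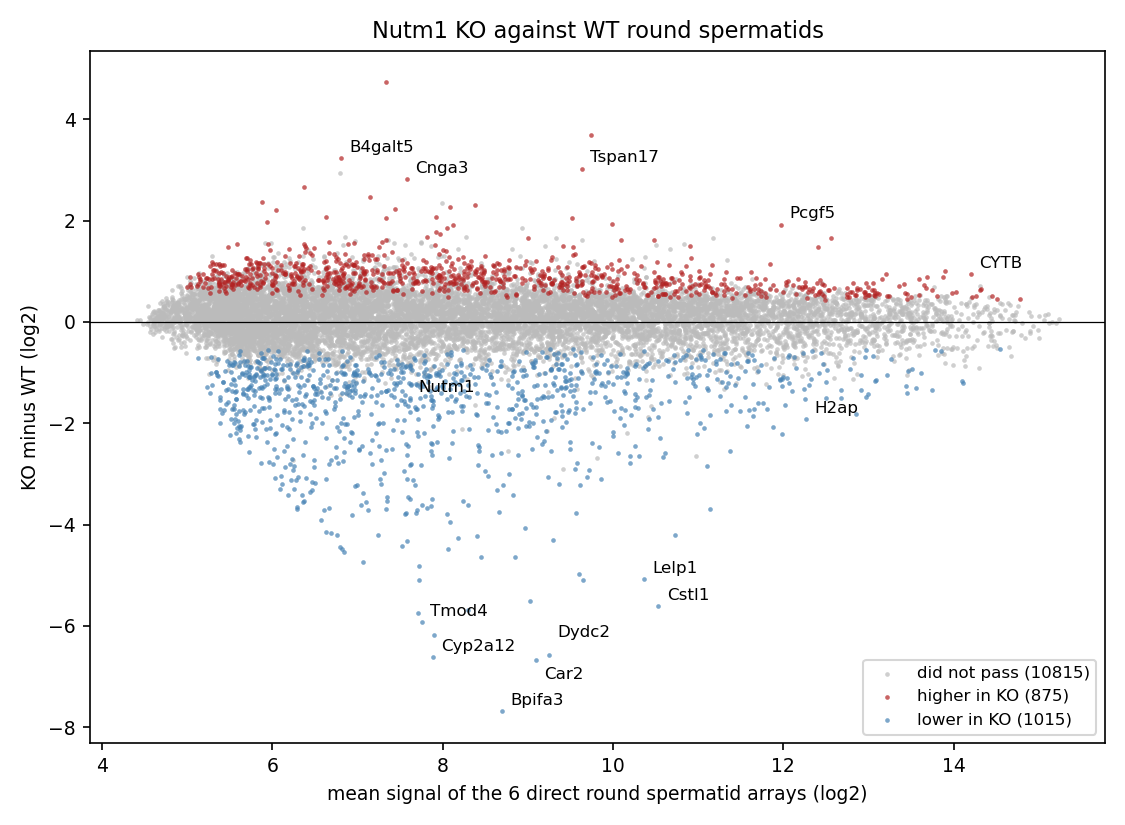
KO minus WT difference (log2, vertical axis) of each of the 12705 features against its mean signal on the 6 direct round spermatid arrays (log2, horizontal axis). Red points are the 875 features higher in KO, blue points the 1015 lower in KO, and grey points those that did not pass; falls reach -7.68 at Bpifa3, and the largest rise of a gene named in the text is 3.23 at B4galt5.

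Calls were spread over the whole range of signal. Falls made up 2.83% of the dimmest group of features, 11.5% of the fifth of 10 equal groups by signal and 4.8% of the brightest. Rises made up 5.19% of the dimmest and 8.03% of the brightest group. Where a gene had other measured probes, they mostly moved the same way. For 176 of the genes that fell, 189 of 235 other probes were also lower in KO, 137 of them called and 3 called in the opposite direction. For 273 of the genes that rose, 355 of 396 other probes were also higher, 121 of them called and 3 called in the opposite direction. In bulk RNA of this kind, fewer cells of a type and less RNA per cell cannot be told apart.

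The deepest falls included genes of secreted proteins and of enzymes. Bpifa3, a relative of the bactericidal/permeability-increasing protein, read 4.67, 4.80 and 5.09 on the KO arrays, against 12.58, 12.51 and 12.53 on the WT arrays. Cyp2a12, a cytochrome P450, read 4.56, 4.65 and 4.53 in KO, against 11.23, 11.33 and 11.01 in WT. Both were bright on each WT array and below detection on each KO array, so that their folds are bounds: Bpifa3 was at least 131-fold lower (log2 difference -7.68, SE 0.42, adjusted p = 4.21e-07, limma) and Cyp2a12 at least 51.3-fold lower (-6.61, SE 0.26, adjusted p = 2.82e-08). Car2, a carbonic anhydrase that interconverts carbon dioxide and bicarbonate, read 5.48, 5.86 and 5.92 in KO, against 12.29, 12.48 and 12.52 in WT. Dydc2, which has a DPY30 domain of the kind found in subunits of histone methyltransferases and of the sperm axoneme, read 6.02, 5.96 and 5.91 in KO, against 12.69, 12.40 and 12.53 in WT. The largest changes were chosen among genes whose groups lie apart. Car2 and Dydc2 remained detectable in KO, Car2 on 2 and Dydc2 on all 3 arrays. The log2 differences were -6.67 for Car2 (SE 0.40) and -6.58 for Dydc2 (SE 0.24, a 95.6-fold lower signal), and the other probe of Dydc2 gave -6.56.

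The sequences before the starts of these genes are shown because their base composition is compared with that of the other genes below. Each is the 250 bases upstream of the annotated start, from RefSeq for build GRCm38.p6, written 5′ to 3′ on the strand of the gene. Capitals mark matches on either strand to any of 6 motifs that were searched: the cAMP response element TGACGTCA, its half-site TGACG, the TATA box TATAAA, the CCAAT box CCAAT, the GC box GGGCGG and the ETS core CCGGAAG. The region of Bpifa3 (chr2:154130086-154130335, + strand) holds 0 CpG dinucleotides, that of Cyp2a12 (chr7:27028840-27029089, + strand) holds 1 and that of Dydc2 (chr14:41073038-41073287, - strand) holds 3. Marked in them are CCAAT boxes in all 3, a TATA box in Cyp2a12 and an ETS core in Dydc2. For contrast, B4galt5 (chr2:167349179-167349428, - strand) and Tspan17 (chr13:54789155-54789404, + strand), the genes with the largest rises, hold 21 and 22 CpG dinucleotides and repeated GC boxes. A match is a match of letters and no measure of binding.
Bpifa3: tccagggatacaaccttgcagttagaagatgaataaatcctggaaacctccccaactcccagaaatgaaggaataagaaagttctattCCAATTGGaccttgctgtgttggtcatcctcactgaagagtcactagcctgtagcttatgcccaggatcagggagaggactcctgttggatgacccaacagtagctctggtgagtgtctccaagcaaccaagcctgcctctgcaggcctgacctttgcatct
Cyp2a12: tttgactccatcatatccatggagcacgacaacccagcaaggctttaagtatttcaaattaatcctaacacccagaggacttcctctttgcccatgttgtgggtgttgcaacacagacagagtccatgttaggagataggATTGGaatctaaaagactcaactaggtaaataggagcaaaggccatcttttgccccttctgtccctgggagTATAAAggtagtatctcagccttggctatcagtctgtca
Dydc2: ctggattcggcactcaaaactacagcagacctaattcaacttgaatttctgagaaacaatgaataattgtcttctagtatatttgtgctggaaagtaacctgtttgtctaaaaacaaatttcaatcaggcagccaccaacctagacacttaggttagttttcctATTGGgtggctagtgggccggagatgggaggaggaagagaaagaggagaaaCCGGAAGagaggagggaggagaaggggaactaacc
B4galt5: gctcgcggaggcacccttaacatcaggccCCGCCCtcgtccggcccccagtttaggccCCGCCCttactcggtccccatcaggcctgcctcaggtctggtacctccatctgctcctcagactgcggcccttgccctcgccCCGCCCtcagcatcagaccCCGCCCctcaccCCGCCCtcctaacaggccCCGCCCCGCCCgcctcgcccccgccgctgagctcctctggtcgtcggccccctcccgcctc
Tspan17: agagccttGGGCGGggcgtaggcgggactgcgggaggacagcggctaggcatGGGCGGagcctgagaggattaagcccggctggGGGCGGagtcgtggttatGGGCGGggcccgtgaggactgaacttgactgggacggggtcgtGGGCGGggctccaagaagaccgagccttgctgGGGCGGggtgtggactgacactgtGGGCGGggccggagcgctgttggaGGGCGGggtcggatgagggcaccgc

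Among the rest of the 15 largest falls were genes of the cytoskeleton and of calcium binding. Tmod4, a tropomodulin that caps the slow-growing ends of actin filaments, read 4.59, 4.75 and 5.03 in KO, against 10.53, 10.75 and 10.87 in WT. Efcab1, an EF-hand calcium-binding protein, read 5.30, 5.25 and 5.40 in KO, against 10.26, 9.88 and 10.26 in WT, and Scgn, the EF-hand protein secretagogin, read 6.36, 6.87 and 6.35 in KO, against 11.06, 11.11 and 11.33 in WT. No KO array detected Tmod4 or Efcab1, whereas all 3 detected Scgn. Tmod4 was at least 36.9-fold lower (-5.92, SE 0.32), Efcab1 at least 24.6-fold lower (-4.82, SE 0.29) and Scgn differed by -4.64 (SE 0.24). The other probes of Tmod4 gave -3.83 and -5.42.

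Further deep falls were of Glt6d1, which has a glycosyltransferase domain (-5.68, SE 0.34), Odf3b, a relative of an outer dense fibre protein of the sperm tail (-5.09, SE 0.35), Lelp1, a proline-rich protein (-5.08, SE 0.39), and Snx29, a sorting nexin (-4.48, SE 0.26, at least 11.7-fold). Odf3b read 7.02, 7.17 and 7.10 in KO, against 12.23, 11.75 and 12.58 in WT, and Lelp1 read 8.38, 7.41 and 7.68 in KO, against 12.85, 12.89 and 12.97 in WT. These 2 genes were thus far below WT but stayed well above the detection level. Each of the 15 largest falls passed under every alternative tried, and their differences on the mixed arrays ran the same way, for example -7.42 for Bpifa3, -5.80 for Cyp2a12 and -5.28 for Glt6d1.

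**Figure D2:**
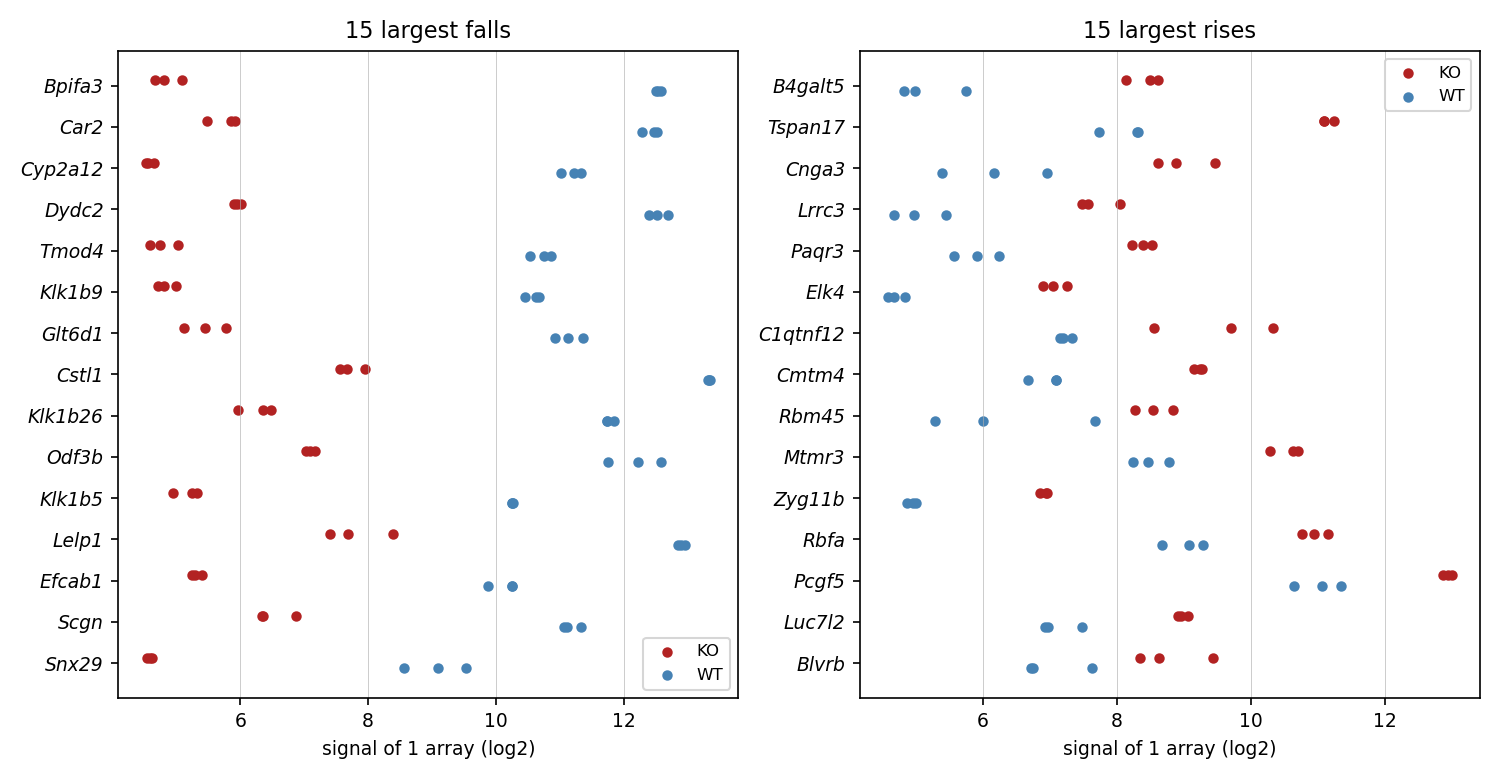
Signal (log2) of the 15 largest falls (left) and the 15 largest rises (right) on each direct round spermatid array, with KO arrays in red above WT arrays in blue for each gene, 3 points each. The genes were chosen to have no overlap between the groups. Bpifa3 lies below 6 in KO and above 12 in WT, and the rises span smaller distances than the falls.

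Several families of small secreted proteins, proteases and protease inhibitors held repeated falls. Over all named genes 7.1% fell and 7.39% rose, and the lists were chosen with earlier results known. Of 10 measured kallikreins, serine proteases of the trypsin type, 5 fell (50%) and 0 rose, and the 5 passed under every alternative. Klk1b9 read 4.99, 4.81 and 4.71 in KO, against 10.45, 10.63 and 10.68 in WT, and Klk1b5 read 5.32, 5.25 and 4.95 in KO, against 10.25, 10.25 and 10.27 in WT. Both were undetected on all KO arrays, and the falls were at least 33.7-fold for Klk1b9 (-5.75, SE 0.31) and at least 26.8-fold for Klk1b5 (-5.08, SE 0.56). Klk1b26 (-5.50, SE 0.83) and Klk1b8 (-4.21, SE 0.42) were still detected in KO. The Klk1b paralogs are close copies, and a probe named for 1 of them may read others. The median of the 10 was -2.31, where that of all features was 0.12.

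Of 7 measured cystatins, inhibitors of cysteine proteases, 4 fell (57.1%, against 7.1% of all named genes), 2 of them under every alternative. Cstl1 read 7.95, 7.67 and 7.57 in KO, against 13.33, 13.35 and 13.34 in WT, and Csta3 read 4.40, 4.57 and 4.78 in KO, against 7.21, 7.79 and 7.87 in WT. Cstl1 stayed detectable in KO and Csta3 did not. Their differences were -5.61 for Cstl1 (SE 0.23, 48.9-fold lower) and -3.04 for Csta3 (SE 0.20, at least 4.33-fold lower). The other members that fell, Cst9 (-1.38) and Cst12 (-1.22), are also markers of Sertoli cells. Their adjusted p was 0.0509 and 0.0514 for Cst9 without WT replicate 2 or 3, and 0.0556 and 0.0522 for Cst12 without KO replicate 1 or WT replicate 3.

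Beta-defensins, small cationic peptides of epithelia and of the male tract, had 10 measured members with a median of -1.41. Of these 6 fell (60%, against 7.1% of all named genes) and 0 rose, 3 under every alternative. Defb33 read 9.81, 8.98 and 9.08 in KO, against 12.99, 12.84 and 13.11 in WT, and Defb21 read 4.45, 4.51 and 4.46 in KO, against 7.60, 8.499 and 7.59 in WT. The fall of Defb33 was 12.9-fold (-3.69, SE 0.26) and that of Defb21 at least 5.22-fold (-3.42, SE 0.26). Defb15 fell as well (-1.67, SE 0.35), and so did Defb36 (-0.88, SE 0.26), which is also a marker of Sertoli cells. Of 9 measured serpins, inhibitors of serine proteases, 3 fell (33.3%), all under every alternative: Serpina1b (at least 5.27-fold), Serpina1d (at least 1.69-fold) and Serpinb6c (-1.39, SE 0.25). The serpin median was -0.05, and the highest difference was 2.94, which did not pass. Serpina1b and Serpina1d are close paralogs. Among 23 other trypsin-like proteases 4 fell (17.4%) and 1 rose (4.35%), all 5 under every alternative. Prss23 fell at least 14.2-fold, and Prss52 (-3.61, SE 0.38), Prss55 (-2.54, SE 0.29) and Prss37, known to be needed for male fertility in mice (-1.46, SE 0.28), fell as well. Wfdc and Spink inhibitors had 3 falls (33.3%) and 1 rise (11.1%) among 9, with Wfdc10 (-1.14, SE 0.19) and Wfdc6a (-1.04, SE 0.22) lower under every alternative. In the Bpi and Plunc family 3 of 5 fell (60%), and 1 of these, Bpifa3, passed under every alternative.

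Other enzyme families and transporters held calls as well, beside shares of 7.39% for rises and 7.1% for falls over all named genes. Of 7 carbonic anhydrases Car2 and Car9 fell and Car13 rose, the last by 1.22 (SE 0.17, at least 1.47-fold). Car9 was at least 2.17-fold lower. Of 17 cytochromes P450 3 fell (17.6%), among them Cyp2f2 (-1.29, SE 0.26). Among 31 galactosyl- and N-acetylglucosaminyltransferases 4 rose and 4 fell (12.9% each). Of these B4galt5, which makes lactosylceramide, rose, and Glt6d1, Mgat5, which branches N-glycans (-2.54, SE 0.34), and B3gntl1 (-0.87, SE 0.17) fell under every alternative. The other probe of B3gntl1 gave -0.35. In the 12 sialyl- and fucosyltransferases 3 fell, of which St8sia1 (-1.59, SE 0.22) and St8sia5 (-1.47, SE 0.19), both of the alpha-2,8-sialyltransferase type, passed under every alternative. Of 171 solute carriers 12 rose (7.02%) and 11 fell (6.43%), shares close to those of all named genes. Slc39a4, a zinc importer (-3.78, SE 0.19), and Slc36a1, a proton-coupled amino acid transporter (at least 4.81-fold lower), had the smallest p among them, and Slc5a6, a vitamin transporter, rose (1.34, SE 0.22).

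**Figure D3:**
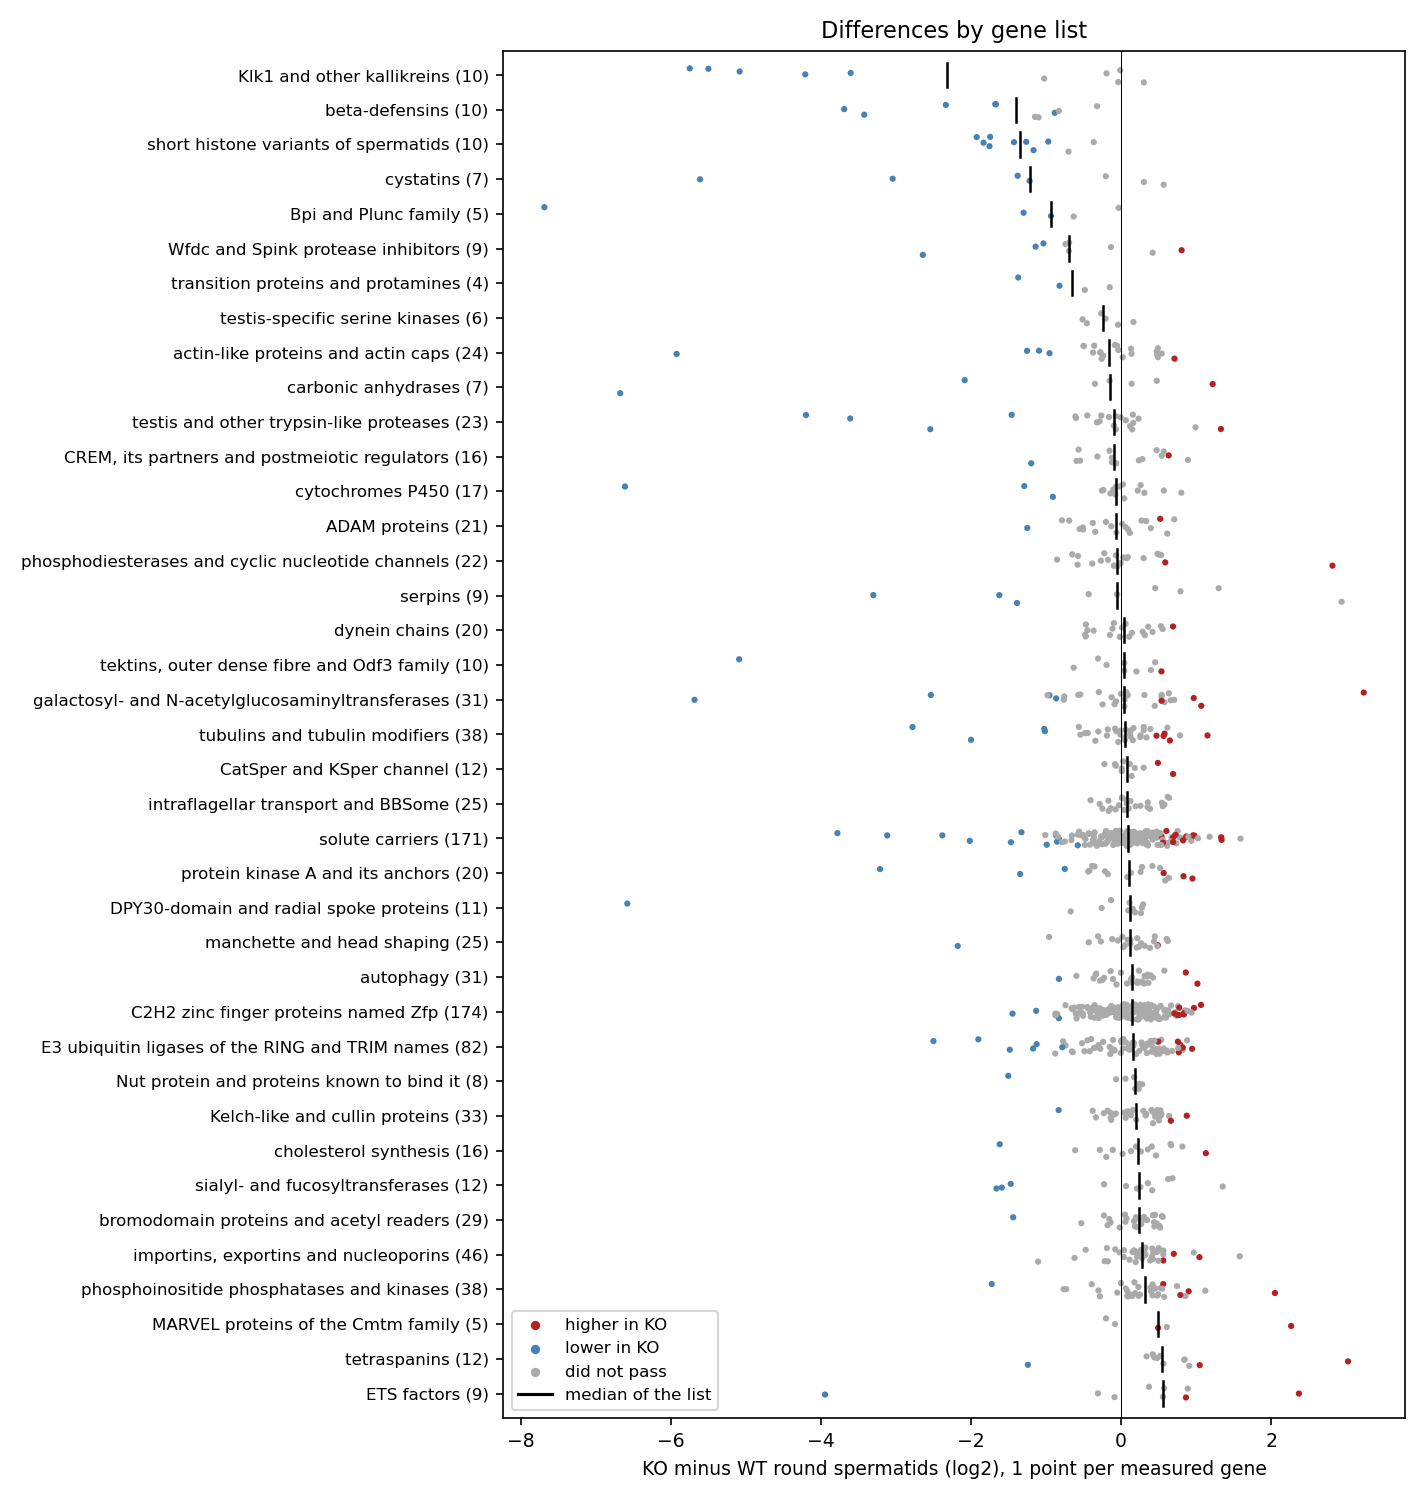
KO minus WT difference (log2) of every measured gene of 39 gene lists, with the number measured in brackets after each name and the lists in order of their median (black bar). Red points rose, blue points fell and grey points did not pass; the kallikrein, beta-defensin, short histone variant and cystatin lists have the lowest medians, from -2.31 to -1.22.

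Abundant transcripts held falls as well as rises. The brightest 10% of features, with a mean signal of at least 11.73, held 163 calls (12.8% of 1271), 61 of them falls (4.8%) and 102 rises (8.03%), where all features gave 7.99% and 6.89%. Xaf1, which encodes a partner of the apoptosis inhibitor XIAP, read 10.55, 11.21 and 10.77 in KO, against 12.91, 12.76 and 13.07 in WT (-2.07, SE 0.32, adjusted p = 0.00103, limma). Tfam, the gene of a factor that packs and transcribes mitochondrial DNA, read 12.07, 11.92 and 11.79 in KO, against 13.39, 13.36 and 13.55 in WT (-1.51, SE 0.24), and its other probe gave -1.57. The bright genes, too, were chosen among those whose groups lie apart. Tex37 (-1.72, SE 0.27), the IQ-motif gene Iqcf1 (-1.48, SE 0.20) and Afap1, which binds actin filaments (-1.60, SE 0.34), fell too, and all 5 passed under every alternative. Asb1 fell at its brightest probe (-1.50, SE 0.27), but its other 5 probes gave -3.57 to 0.17. Tex35 had the largest difference of this group (-2.20, SE 0.65), and its adjusted p of 0.0406 became 0.0697 to 0.144 when KO replicate 1, 2 or 3, or WT replicate 2 or 3, was left out.

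Some genes of spermatid chromatin were lower, most of all the short histone variants. Of 10 measured, 8 fell (80%, against 7.1% of all named genes) and 0 rose, 7 of them under every alternative, and the median was -1.35. H2ap, an H2A-related gene on the X chromosome, read 11.02, 11.56 and 11.33 in KO, against 13.24, 13.46 and 12.99 in WT. H2al2a, which encodes a short H2A that loosens nucleosomes for transition proteins, read 10.28, 10.30 and 10.08 in KO, against 12.08, 12.002 and 12.08 in WT. Both were bright in WT and lower on each KO array, with differences of -1.92 (SE 0.26) for H2ap and -1.83 (SE 0.22) for H2al2a. H2al3 fell by 1.75 (SE 0.24), and H2al2c was at least 1.96-fold lower. The 10 also included the spermatid linker histones Hils1 (-0.36, adjusted p = 0.289) and H1f7 (-0.70, adjusted p = 0.155), which did not pass. Genes of the H2al1 group are nearly identical, so their probes may read more than 1 of them.

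Of the 4 genes measured in the transition protein and protamine list, Prm3 and Tnp2 passed (50% fell, against 7.1% of all named genes). Prm3 is counted here by its name, and whether its protein packs DNA was not examined. Prm3 read 11.55, 11.56 and 11.12 in KO, against 12.80, 12.72 and 12.84 in WT (-1.37, SE 0.25). Tnp2 read 11.09, 11.12 and 10.71 in KO, against 11.82, 11.62 and 11.95 in WT (-0.82, SE 0.19), and its adjusted p of 0.0151 became 0.0731 without KO replicate 3 and 0.0652 without WT replicate 3. Tnp1 differed by -0.48 (adjusted p = 0.0790) and Prm1 by -0.15 (adjusted p = 0.523). Among the 8 measured genes of Nut and proteins known to bind it, including Ep300 (0.24, adjusted p = 0.344) and Brdt (0.06, adjusted p = 0.900), Nutm1 alone passed. Of 29 bromodomain proteins and acetyl readers 1 fell (3.45%, below the 7.1% of all named genes) and 0 rose. The fall was of Mllt3, a reader of acetylated and crotonylated histones (-1.44, SE 0.29).

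Markers of later spermatids were also lower, but their list shares Prm1, Tnp1, Tnp2 and Prm3 with the transition protein and protamine list. All 9 measured markers of elongating spermatids were lower in KO. Those that passed, Tnp2 and Prm3, are both shared genes, and 4 markers passed with cyclic loess scaling. Smcp, of the mitochondrial capsule of sperm, differed by -0.91 (adjusted p = 0.0601), and Hspb9 by -0.52 (adjusted p = 0.0680). The mean of the 9 was 13.46 to 13.64 on the KO arrays and 14.08 to 14.12 on the WT arrays, which do not overlap. The 11 measured markers of round spermatids, with means of 12.75 to 13.04 in KO and 12.66 to 12.94 in WT, overlapped between the groups, and 0 of them passed in limma. The part of the elongating cells in the lower chromatin genes was not tested.

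**Figure D4:**
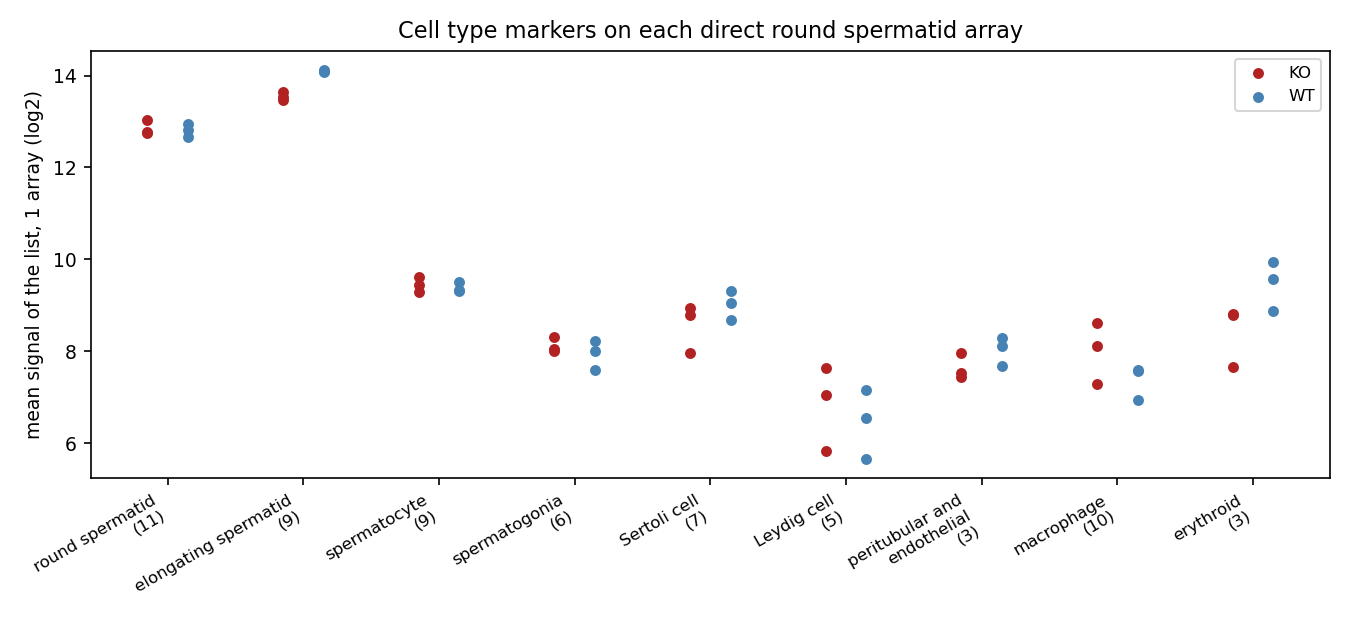
Mean signal (log2) of each cell type marker list on each direct round spermatid array, with KO (red) left of WT (blue) and the number of measured markers in brackets. The elongating spermatid list reads 13.46 to 13.64 in KO and 14.08 to 14.12 in WT, and the other lists overlap between the groups except the erythroid list, which reads 7.66 to 8.81 in KO and 8.88 to 9.94 in WT.

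The largest rises were smaller than the largest falls. B4galt5 read 8.49, 8.62 and 8.15 in KO, against 4.98, 5.75 and 4.83 in WT. Tspan17, a tetraspanin, a protein with 4 membrane passages, read 11.10, 11.24 and 11.09 in KO, against 8.32, 7.73 and 8.31 in WT. B4galt5 was undetected on every WT array and rose at least 6.18-fold (3.23, SE 0.24, adjusted p = 3.25e-06, limma). Tspan17 was detected in both groups and rose 8.13-fold (3.02, SE 0.24, adjusted p = 4.66e-06), and its other probe gave 3.32. Cnga3, a subunit of the cyclic nucleotide-gated channel of cone cells, read 8.89, 9.47 and 8.62 in KO, against 5.40, 6.16 and 6.97 in WT (2.82, SE 0.34). Its WT arrays were spread more widely than its KO arrays.

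Other membrane and secreted products among the 15 largest rises were those of Lrrc3, a protein with leucine-rich repeats (at least 3.76-fold higher), Paqr3, a Golgi protein that holds Raf kinase there (2.47, SE 0.21), C1qtnf12, a secreted relative of complement C1q (2.30, SE 0.35), and Cmtm4, of the MARVEL family (2.26, SE 0.27). Paqr3 read 8.53, 8.39 and 8.23 in KO, against 5.57, 6.24 and 5.92 in WT, and Cmtm4 read 9.27, 9.15 and 9.24 in KO, against 7.09, 6.68 and 7.09 in WT. C1qtnf12 differed most among the KO arrays (8.55, 9.71 and 10.33), all above its WT arrays (7.20, 7.33 and 7.15).

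The other rises among the 15 largest were of genes with varied roles. Pcgf5, a subunit of a variant Polycomb repressive complex, read 12.95, 12.998 and 12.87 in KO, against 11.35, 10.64 and 11.06 in WT, and was the brightest of the 15 (1.92, SE 0.20, adjusted p = 4.97e-05). Elk4, an ETS transcription factor, rose at least 2.42-fold, and its other probes gave 0.80 and 2.09. The RNA-binding protein gene Rbm45 rose by 2.23 (SE 0.46), with WT arrays of 6.00, 7.68 and 5.29. Luc7l2, linked to the U1 snRNP of the spliceosome, rose by 1.85 (SE 0.22), although its other probe gave 0.26. Mtmr3, a phosphoinositide phosphatase, rose by 2.05 (SE 0.22), Rbfa, a factor of mitochondrial ribosome assembly, by 1.94 (SE 0.22), and Zyg11b, a substrate receptor of a cullin ubiquitin ligase, at least 2.19-fold. Of the 15, 14 passed under every alternative. The exception was Blvrb, a biliverdin reductase (1.77, SE 0.54, adjusted p = 0.0465), whose adjusted p was 0.0655 to 0.154 when KO replicate 1, 2 or 3, or WT replicate 2 or 3, was left out.

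Among these bright features the rises included transcripts of the mitochondrial genome. CYTB, of respiratory complex III, read 14.71, 14.62 and 14.69 in KO, against 14.18, 13.32 and 13.68 in WT (0.94, SE 0.20). ND4, of complex I, read 13.71, 13.64 and 13.69 in KO, against 13.14, 12.63 and 12.46 in WT (0.94, SE 0.19). Both lay higher on each direct KO array, as their choice required, and passed under every alternative. On mixed replicate 5, however, KO read lower than WT, at 13.79 against 13.92 for CYTB and 12.818 against 12.825 for ND4. Of 6 mitochondrially encoded genes measured, looked up after these values had been seen, 4 rose (66.7%, against 7.39% of all named genes). COX2 (0.09) and ATP6 (0.65, adjusted p = 0.0551) did not pass, and with cyclic loess scaling 3 genes rose. ND1 rose by 0.85, with an adjusted p of 0.0527 to 0.108 when KO replicate 1, 2 or 3, or WT replicate 2 or 3, was left out. Among bright nuclear genes, Garnl3, which has a Rap GTPase-activating domain (1.14, SE 0.23), and Vcp, the AAA ATPase that extracts ubiquitinated proteins (0.83, SE 0.16), rose under every alternative. Calm3 (0.85) and Stt3b (0.84) rose as well, but with 1 array left out their adjusted p reached 0.122 (Calm3, without WT replicate 3) and 0.0780 (Stt3b, without KO replicate 1), and neither passed with cyclic loess scaling.

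The signalling lists were small, and their counts stand beside shares of 7.39% for rises and 7.1% for falls over all named genes. Of 20 subunits and anchors of protein kinase A 3 rose (15%) and 3 fell (15%). Prkar2a, a regulatory subunit, read 6.07, 6.27 and 5.87 in KO, against 9.17, 9.04 and 9.64 in WT (-3.21, SE 0.23), and the anchor gene Akap6 was at least 1.91-fold lower. Both passed under every alternative, and the 3 rises did not. Among 9 ETS factors 2 rose and 1 fell: Elk4 and Ets1 were higher, and Etv2, known from blood vessel development, fell 15.4-fold (-3.95, SE 0.31). Ets1 rose by 0.86, with an adjusted p of 0.0537 to 0.0583 without KO replicate 3 or WT replicate 2. Of 38 phosphoinositide phosphatases and kinases 4 rose (10.5%) and 1 fell (2.63%), and Mtmr3 alone passed under every alternative. In the lists of tetraspanins (2 rises, 1 fall among 12), Cmtm proteins (2 rises among 5) and phosphodiesterases and cyclic nucleotide channels (2 rises among 22), the genes that passed under every alternative were Tspan17, Cmtm4 and Cnga3. Regulators around CREM, a factor that activates spermatid genes, had 1 rise and 1 fall among 16 (6.25% each), near the shares of all named genes, and neither passed under every alternative.

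Calls among structural and transport systems of the spermatid are set beside the shares over all named genes, 7.39% for rises and 7.1% for falls. Most of these lists held few calls, and whether their shares differ was not tested. Of 38 tubulins and tubulin modifiers 5 rose (13.2%) and 4 fell (10.5%). Of the falls 3 passed under every alternative: Ttll2, of the tubulin tyrosine ligase-like family (-2.78, SE 0.41), Tppp2, which binds tubulin (-2.0, SE 0.41), and Tbcd, a tubulin-folding cofactor (-1.02, SE 0.18). The other probe of Tbcd gave -0.20. Among 24 actin-like proteins and actin caps 4 fell (16.7%) and 1 rose (4.17%), with Tmod4 and the cofilin gene Cfl2 (-1.25, SE 0.21) lower under every alternative. Of 25 genes of the manchette, the microtubule skirt that shapes the head, Spem2 fell (-2.18, SE 0.34), reading 9.03, 8.99 and 8.70 in KO, against 11.14, 11.09 and 11.02 in WT. The list also held 1 rise, Csnk2a2, a catalytic subunit of casein kinase 2 (0.49, SE 0.14, adjusted p = 0.0412), whose adjusted p was 0.225 with cyclic loess scaling and 0.0657 to 0.135 with 1 array left out. In 25 intraflagellar transport and BBSome genes 0 passed in limma, and likewise in 6 testis-specific serine kinases, of which 1 fell with cyclic loess scaling. Dynein chains (1 rise in 20), CatSper and KSper channel genes (2 rises in 12) and importins, exportins and nucleoporins (3 rises in 46) had no member that passed under every alternative. Zinc finger genes of the Zfp series had 8 rises (4.6%) and 3 falls (1.72%) among 174, and 2 rises and 8 falls with cyclic loess scaling. Of 31 autophagy genes 2 rose and 1 fell, with Atg101, of the initiating kinase complex (1.02, SE 0.19), higher under every alternative. In cholesterol synthesis (16 measured) Scap, which escorts the SREBP factors, rose by 1.13 (SE 0.24), and Pmvk, phosphomevalonate kinase, fell by 1.62 (SE 0.21).

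The regions before the starts of genes that fell differed in composition from those of genes that rose. Of the 715 named genes that fell 578 (80.8%) had an entry, and of the 745 that rose 619 (83.1%), against 8224 of all 10076 measured (81.6%). The median CpG count in 250 bases was 7 for falls, 19 for rises and 15 for all measured genes, and the median GC content was 55.2%, 62.8% and 59.2%. Falls of 4-fold or more had a median of 4 CpG and 52.4% GC. Read the other way, 18.4% of the 998 genes with 0 to 3 CpG fell and 2.4% rose, whereas 4.92% of the 1749 genes with 24 or more fell and 11.8% rose. Cyclic loess scaling moved these shares to 21.8% and 0.902% for the first group and to 6.58% and 5.32% for the second. The median signal was 8.05 in the first group and 8.12 in the second.

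**Figure D5:**
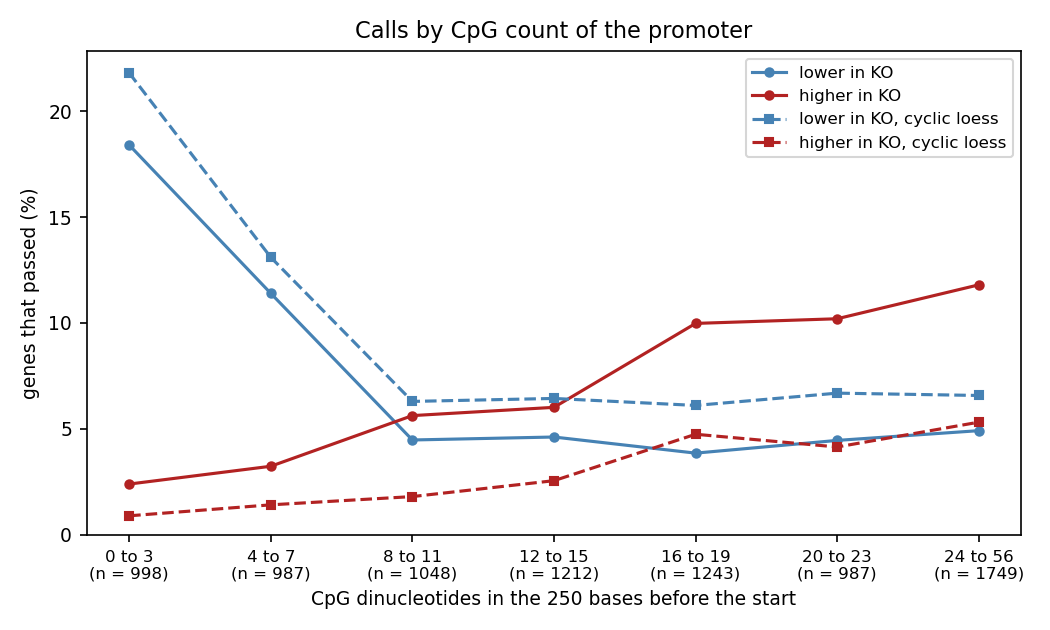
Share of measured genes (%, vertical axis) that fell (blue) or rose (red) in KO round spermatids, by the number of CpG dinucleotides in the 250 bases before the start (horizontal axis, number of genes in brackets), with quantile scaling (solid lines) and cyclic loess scaling (dashed lines). The share that fell is 18.4% at 0 to 3 CpG and 4.92% at 24 or more, and the share that rose is 2.4% and 11.8%.

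Motif matches differed as well, and no allowance was made for base composition. The GC box GGGCGG was present in 38.4% of the regions of genes that fell, 68.5% of those that rose and 56.2% of all measured genes (32.9% of all 27025 listed promoters). The ETS core CCGGAAG matched in 8.48%, 17.8% and 13.8% (7.05% of all promoters), and the half-site TGACG, which also lies inside the full cAMP response element, in 16.8%, 29.4% and 26.4% (17.9%). The full element TGACGTCA was found before 5 genes that fell (0.865%) and 24 that rose (3.88%), against 2.81% of measured genes and 1.62% of all promoters. For the TATA box TATAAA the shares were 8.3%, 5.98% and 6.89% (13% of all promoters), and for CCAAT 33.4%, 35.5% and 36.5% (34.5%). All searches covered both strands.

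Genes that fell or rose were found on every autosome. The share that fell was 4.25% on chromosome 11 to 9.51% on chromosome 1, and 12.5% on the X chromosome. The share that rose was 4.12% on chromosome 12 to 10.2% on chromosome 19. Runs of at least 3 neighbouring measured genes called in the same direction numbered 11. How many would arise with as many calls placed at random was not worked out. Falls in a row included Bpifb2, Bpifb3 and Bpifa3 and also Cstdc1, Cst12 and Cst9 on chromosome 2, and Defb33, Defb11 and Defb15 on chromosome 8. Rises in a row included Armh3, Hps6, Ldb1 and Pprc1 on chromosome 19 and Suz12, Crlf3 and Atad5 on chromosome 11. The genes in these runs were named after their values had been seen.

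Set beside spermatocytes, where 106 features (0.834%) differed between KO and WT, most falls had the same sign and a smaller difference. Of the 1015 falls 916 were lower in KO spermatocytes as well, 78 of them called, with a median of -0.39. Of the 875 rises 572 were higher there, 21 of them called, with a median of 0.08. A direct test of whether the effect differed by stage passed for 189 features (1.49%). Per the labels each genotype had 3 fractionations in all, so arrays of both stages with the same number may come from the same mice, and with the fractionation as a random block 269 features passed. Of the 189, 166 were falls that lay further from 0 in round spermatids, and 21 were rises that did so. Pcgf5 averaged 13.4 in KO and 13.3 in WT spermatocytes, a difference of 0.17 (SE 0.20, adjusted p = 0.959), and its difference between the stages was 1.75 (SE 0.28, adjusted p = 0.0104). Klk1b5 differed by -0.43 (SE 0.56) in spermatocytes, and the difference between the stages was -4.65 (SE 0.80, adjusted p = 0.0132). Cnga3 was higher by 3.05 (SE 0.34) in KO spermatocytes too, and its stage difference did not pass (-0.24, adjusted p = 0.867). Among the 15 largest falls the stage test passed for 8, and 13 were also called lower in spermatocytes. Among the 15 largest rises it passed for 3, and 7 were also called higher there. Where KO spermatocytes were already below the detection level, as for Cyp2a12 (mean 4.67), the fall is limited by the WT level (7.60), and the stage difference depends on that level.

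The mixed arrays, which share their RNA with the direct ones and are not independent, gave the same directions in their group means for nearly all calls. Of the 1015 falls 1012 were lower in KO there (median -1.33) and 923 were called, and of the 875 rises 872 were higher (median 0.72) and 731 were called. The mixtures did not follow the stated pairs. In 0 of 6 mixed arrays was the stated pair of replicates the pair that correlated best with the mixture in deviations from the group mean, and r with the stated pair was -0.33 to 0.07.

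None of the measured markers of spermatocytes (9), spermatogonia (6) or Leydig cells (5) passed in limma. Their list means overlapped, for example 5.83 to 7.62 in KO and 5.66 to 7.15 in WT for Leydig cells. No direct round spermatid array detected the Leydig marker Star, and only 1 KO array each detected Cyp11a1 and Hsd17b3. Cyp17a1 and Insl3 were detected on all 3 arrays of each group. The Leydig means followed the replicate number in both genotypes, and at each number the KO array read higher. Too dim to be tested were Sycp3, Hormad1 and Dmc1 of spermatocytes, Stra8, Gfra1, Dmrt1 and Nanos3 of spermatogonia, Amh, Gata4 and Tsx of Sertoli cells, and Hsd3b1 and Hsd3b6 of Leydig cells. Of 7 Sertoli markers 3 fell (Cst9, Cst12 and Defb36), where 7.1% of all named genes fell and 7.39% rose. By name these 3 also belong to the cystatins and beta-defensins. Sox9 (0.26), Rhox5 (0.12), Aard (0.10) and Cldn11 (-0.09) did not pass. The Sertoli list means were 7.95 to 8.95 in KO and 8.67 to 9.31 in WT. Of 3 peritubular and endothelial markers Vwf fell (-1.25, SE 0.26), with means of 7.44 to 7.96 in KO and 7.67 to 8.28 in WT. Of 10 macrophage markers H2-Aa rose. The list means were 8.61, 7.29 and 8.12 on KO replicates 1 to 3 and 7.58, 6.93 and 7.58 on WT replicates 1 to 3. They overlapped as groups but were higher in KO at each replicate number. The 3 erythroid markers were lower in KO without passing, but all 3 fell with cyclic loess scaling. The part of these cells in the results was not tested.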

How the data were processed

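Labelled RNA of 24 samples (12 direct, 12 mixtures) was read on Illumina bead arrays. The non-normalized intensity per probe and array was deposited by the authors, per the file headers, with a detection p-value for each. Scanner software, bead summarization and background subtraction are not given in the sources used here. The intensity values deposited as processed rank the probes as the non-normalized ones do (rank correlation 1.00 or just below in each column) and were used as an alternative. The slide of each array is not stated.

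Background correction from the detection p-values, quantile scaling and the log2 transform were made over the 24 arrays by neqc of limma 3.58.1 under R 4.3.3 (offset 16). A probe was kept if its detection p was below 0.01 on 3 or more direct arrays, which left 17401 (38.4%). The platform table names a single gene for 34885 of 45281 probes (77.0%), several for 18 and no gene for 10378. For 34807 probes the gene identifier was found in RefSeq, which gave their symbols. The probe with the highest mean stood for its gene, and unnamed probes were tested singly. A model with 4 groups was fitted to the 12 direct arrays (lmFit and eBayes, with 8 residual and 4.07 prior degrees of freedom), and every adjusted p is from limma with Benjamini-Hochberg adjustment over 12705 features. For a gene detected on no array of the lower group the fold is a bound: the mean of the higher group against, on each array of the lower group, the lowest detected level or the value itself if that is higher. The number of arrays limits the precision.

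Replicates are separate fractionations. KO and WT fractionations with the same number come from different mice. Over all features, residuals of same-numbered arrays correlated at 0.06, 0.08 and -0.06, which cannot show a link limited to few genes. Some cell type markers did follow the number: Leydig list means on replicates 1 to 3 were 7.62, 5.83 and 7.05 in KO and 7.15, 5.66 and 6.56 in WT. The members and lists were chosen with earlier results of these data known. Named were Nutm1, the 15 largest falls and 15 largest rises that passed, with groups apart and detection on all 3 arrays of the higher group (clone, locus, Rik and Gm names passed over), the 8 largest of each in the brightest 10%, and up to 4 members of each of 39 lists with the smallest p, plus members given as not passing. The 39 lists hold 1925 genes of the array, of which 1045 were measured. Tests were tried on simulated data with 12705 features and noise drawn independently for each feature and array. Changes of 0.5 on the log2 scale were put into 57 features, of 1 into 74 and of 2 into 69. The model recovered 3.51%, 48.6% and 94.2% of these, with 7.21% of calls false. In the real comparison many more features were called (1890), so these rates need not hold there. Alternatives were other background, scaling, filter, probe, variance and array choices, blocks, and leaving out each array.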

Additional observations from a re-analysis of the deposited data

Results flagged for a closer look

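For 11 of the largest changes the effect of the KO differed between the stages by a test of that difference (round spermatids minus spermatocytes, log2, limma). It was larger in round spermatids for 8 falls: Klk1b5 (-4.65), Cyp2a12 (-3.68), Klk1b9 (-3.59), Tmod4 (-3.39), Snx29 (-3.04), Efcab1 (-2.88), Car2 (-2.86) and Dydc2 (-1.56). It was larger there for 3 rises: Pcgf5 (1.75), Paqr3 (1.68) and Zyg11b (1.24). Of the falls, all but Klk1b5 averaged 4.55 (Snx29) to 5.31 (Car2) in KO spermatocytes, where the lowest detectable level was 5.41 to 5.78. Their fall in spermatocytes is therefore limited by the WT level of that stage. For Cyp2a12 that level was 7.60, against 11.2 in WT round spermatids. Groups of 3 arrays were not tested for single outlying arrays.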

How the results depend on the processing

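Nutm1 stayed lower in KO under each alternative, at -1.60 to -1.43 with 1 array left out, but the difference was -0.88 with no background correction and -0.94 with the authors' processed values, against -1.50. Rises numbered 875 and became 396 with cyclic loess scaling, 425 with a replicate block, 2173 with array weights, 2360 on the mixed arrays alone and 272 to 1111 with 1 array left out. Falls numbered 1015 and became 1604 with array weights, 1694 on the mixed arrays alone and 649 to 1004 with 1 array left out. The 189 stage differences became 343 with no background correction, 337 with the authors' processed values, 50 with a replicate block, 1123 with array weights, 3058 on the mixed arrays alone and 83 to 281 with 1 array left out. The causes were not tested. The numbers share no mice between KO and WT, so the replicate block (1226 calls in all) is no test paired by mouse. Whether same-numbered arrays share other conditions was not tested. The mixed arrays repeat the same fractionations, so their counts are no independent evidence. Of 135 named genes 87 kept direction and call under every alternative and 48 lost the call under at least 1, 23 of them with cyclic loess scaling, and none reversed. Arrays read signal over background: a gene undetected in 1 group has only a bound, and weak changes of dim genes are not resolved.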
